A study of Mus musculus with 20 samples.

Results

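A set of 10 tubulin genes is described in mouse embryonic stem cells that lack thymine DNA glycosylase (TDG KO) and in wild-type cells (WT). The 10 are the alpha tubulins Tuba3a, Tuba3b, Tuba1a, Tuba1b and Tuba1c and the beta tubulins Tubb3, Tubb2a, Tubb2b, Tubb5 and Tubb4b, of 46939 genes in the deposited RNA table. They were selected on their RNA levels and differences between the genotypes in these libraries, and then taken by symbol, so their RNA values are a description and carry no test. All 10 passed the filter on low values, a mean of at least 1 FPKM over the 4 libraries, Tuba3b only through its TDG KO libraries. FPKM counts fragments relative to the length of the transcript and to the size of the library, so levels of different genes can be compared per length.

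RNA was measured in 2 TDG KO and 2 WT libraries, and CTCF binding, by chromatin immunoprecipitation and sequencing, in 2 TDG KO and 2 WT libraries. Both genotypes are of a 129 background. They were grown with serum and LIF on arrested embryonic fibroblasts, which were then depleted by repeated plating. The labels do not say whether a genotype is 1 clone or whether the replicates are independent cultures. The p-values below therefore rest on library spread that may be technical, and a difference between genotypes is also one between the lines used.

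Alpha and beta tubulin pair into the dimer from which microtubules are built, and mammals carry several genes of each kind, called isotypes. Most cells rely on broadly expressed isotypes, whereas others mark a tissue: Tuba3a and Tuba3b are testis alpha tubulins that encode the same protein in mouse, and Tubb3 is the classical beta tubulin of neurons. In mouse, the E2F family repressor E2f6 is known to keep the testis alpha tubulin genes silent in somatic cells. Free dimer feeds back on tubulin mRNA, so that cells tie its stability to their dimer supply.

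The cells matched their label: all 6 markers of pluripotent stem cells were expressed, with summed levels of 2245 and 2363 FPKM in TDG KO and 2806 and 2953 FPKM in WT. Tdg itself was at 5.50 and 4.74 FPKM in TDG KO and at 28.1 and 30.4 FPKM in WT. Low values put library depth, relative to WT replicate 1, at 0.858 to 0.99 in the other libraries, and absolute depth is unknown. Genes that are not members were called higher or lower where limma, fitted to all 12035 genes past the filter, gave a Benjamini-Hochberg adjusted p under 0.05. Over all tested genes 24.4% were higher in TDG KO and 29.5% lower. Of the 6 pluripotent stem cell markers 1 was higher (Nanog) and 3 were lower (Pou5f1, Esrrb and Lin28a). Of 11 tested fibroblast markers 0 were higher in TDG KO and 9 lower, 1 of which, Lum, passed the filter on low values only through WT. Their summed level was 126 and 145 FPKM in TDG KO and 289 and 183 FPKM in WT, and among the WT libraries replicate 1 had the higher level for all 12 listed.

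The start regions of the testis pair are shown because both genes differed between the genotypes by the largest folds of the 10. The sequences are RefSeq windows of 300 bases around the annotated start (GRCm38.p6), read in the direction of transcription. Tuba3a lies on the minus strand (window chr6:125286032-125286331) and Tuba3b on the plus strand (window chr6:145615713-145616012). Capitals mark TTCCCGCC, a form of the site that E2F factors bind, and CCAAT, the CCAAT box.
Tuba3a: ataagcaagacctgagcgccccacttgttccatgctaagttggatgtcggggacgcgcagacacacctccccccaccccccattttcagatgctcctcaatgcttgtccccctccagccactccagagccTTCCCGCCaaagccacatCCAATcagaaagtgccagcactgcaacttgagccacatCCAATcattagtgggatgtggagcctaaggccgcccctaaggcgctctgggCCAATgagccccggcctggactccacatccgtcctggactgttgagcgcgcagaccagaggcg
Tuba3b: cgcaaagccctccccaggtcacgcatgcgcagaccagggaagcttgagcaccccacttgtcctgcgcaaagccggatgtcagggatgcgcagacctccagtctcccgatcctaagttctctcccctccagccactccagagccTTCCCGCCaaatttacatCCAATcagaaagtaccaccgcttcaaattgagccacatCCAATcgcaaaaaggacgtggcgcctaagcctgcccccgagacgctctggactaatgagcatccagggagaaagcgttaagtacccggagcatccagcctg

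The 2 windows matched at 62.6% of aligned positions, and their longest shared run, of 33 bases, holds TTCCCGCC. Other pairs among the 9 members with a window matched at 43.5% to 54.7%, with shared runs of at most 11 bases. TTCCCGCC was searched on both strands and overlaps the shorter TCCCGC. TTCCCGCC stood in Tuba3a and Tuba3b and in no other of the 9 windows, and in 2.19% of the 32851 windows of all genes. The shorter TCCCGC, on either strand, was in 5 of the 9 windows and in 6562 of the 32851. Those 5 were Tuba3a, Tuba3b, Tubb2a, Tuba1c and Tubb5, so the shorter form was not confined to the testis pair. CCAAT, on either strand, was in 7 of the 9 windows and in 37.4% of all windows. CpG dinucleotides numbered 12 in the Tuba3a window and 16 in the Tuba3b window, against a median of 7 over all windows. The windows of Tuba1b, Tubb5, Tubb4b, Tuba1a and Tuba1c held 39, 20, 16, 16 and 7. A match describes letters and is not a measured site.

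Tubb3 and Tubb2a are shown next, the first as the neuronal gene and the second because its start lies under a CTCF region. In the Tubb3 window (plus strand, chr8:123411303-123411602) capitals mark TATAA, on either strand. In the Tubb2a window (minus strand, chr13:34077959-34078258) capitals mark TATAA and AGGNGGC, a stretch of the CTCF consensus.
Tubb3: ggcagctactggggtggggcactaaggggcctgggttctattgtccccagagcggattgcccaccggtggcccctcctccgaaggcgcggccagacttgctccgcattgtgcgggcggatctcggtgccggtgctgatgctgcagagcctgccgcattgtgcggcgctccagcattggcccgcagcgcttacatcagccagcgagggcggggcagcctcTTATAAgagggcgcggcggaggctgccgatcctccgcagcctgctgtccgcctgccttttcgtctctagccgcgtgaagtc
Tubb2a: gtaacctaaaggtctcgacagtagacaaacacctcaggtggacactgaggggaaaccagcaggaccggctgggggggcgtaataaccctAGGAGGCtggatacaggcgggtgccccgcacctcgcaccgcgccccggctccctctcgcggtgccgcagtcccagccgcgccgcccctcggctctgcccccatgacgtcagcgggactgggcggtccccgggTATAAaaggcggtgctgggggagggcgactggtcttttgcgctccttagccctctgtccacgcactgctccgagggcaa

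TATAA was found in 4 of the 9 windows and in 24.9% of all windows. AGGNGGC was found in 5 of the 9 and in 29.4% of all. A longer stretch of the CTCF consensus, also searched, was found in 0 of the 9 windows, and so not in that of Tubb2a. It was in 3.43% of all windows. Of the 5 windows with the shorter stretch, only that of Tubb2a lay under a CTCF region. The windows of Tubb3 and Tubb2a held 26 and 25 CpG dinucleotides.

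Tuba3a (ENSMUSG00000067702, chr6:125278270-125286081, mm10) had 194 and 203 FPKM in TDG KO replicates 1 and 2, and 11.9 and 12.5 FPKM in WT replicates 1 and 2. Both TDG KO libraries lay far above both WT libraries. The means were 198 ± 6.50 FPKM in TDG KO and 12.2 ± 0.419 FPKM in WT (SD, n = 2 each), a fold of 16.2 and a difference of 3.91 on the log2(FPKM + 1) scale. By that difference Tuba3a was in place 7 of the 12035 genes tested. By level it held place 486 among all genes listed in TDG KO, against place 5921 in WT.

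Tuba3b (ENSMUSG00000067338, chr6:145615963-145621477) was at 8.56 and 8.57 FPKM in TDG KO and at 0.454 and 0.550 FPKM in WT. The groups again stood apart, at a level far under that of Tuba3a. Means were 8.56 ± 0.00849 FPKM in TDG KO and 0.502 ± 0.0678 FPKM in WT (SD, n = 2 each), a fold of 17.1. Because WT lies under 1 FPKM, the difference on the log2(FPKM + 1) scale was smaller than that of Tuba3a, at 2.67. The folds of the pair were close, and the level of Tuba3a over Tuba3b was 22.6 and 23.7 in TDG KO and 26.3 and 22.8 in WT. The genes are close copies, and the sources used here do not say how reads that match both were split, so the level of Tuba3b is uncertain.

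The 3 other alpha tubulins, which lie together on chromosome 15, differed by at most 0.20 on the log2(FPKM + 1) scale. Tuba1b, a broadly expressed isotype, was at 485 and 575 FPKM in TDG KO and at 473 and 565 FPKM in WT, and the groups overlapped. Tuba1c, also broadly expressed, was at 125 and 144 FPKM in TDG KO and at 145 and 144 FPKM in WT, again with overlap. Tuba1a, an isotype of dividing cells and of young neurons, was at 250 and 289 FPKM in TDG KO and at 312 and 306 FPKM in WT. It was the 1 member whose TDG KO libraries both lay below WT, by 0.20, beside a pooled SD within groups of 0.105. Fibroblast markers were lower in TDG KO too, and their part in the Tuba1a level was not tested. In bulk RNA, fewer cells of a type and less RNA per cell cannot be told apart.

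Among the beta tubulins, Tubb3 (ENSMUSG00000062380, chr8:123411553-123422015) differed most. It was at 48.5 and 55.9 FPKM in TDG KO and at 13.1 and 13.3 FPKM in WT, without overlap. Means were 52.2 ± 5.26 FPKM in TDG KO and 13.2 ± 0.141 FPKM in WT (SD, n = 2 each), a fold of 3.95 and a log2 difference of 1.90. In the authors' deposited table the same means stand, with a q-value of 0.563. That table gives Tubb3 a locus of 4435366 bases shared by 191 listed genes, whereas RefSeq gives the gene 10463 bases. In the authors' deposited table Tuba3a and Tuba3b have a q-value of 0.000468 each and Tubb2b of 0.0124. These 3 members are marked significant, against 9.48% of all genes listed. That share includes genes below the filter on low values, which all members passed, so it is not a like background.

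Tubb2a and Tubb2b, neighbouring and closely similar genes on chromosome 13 that are prominent in the brain, also stood higher in TDG KO. Tubb2b was at 230 and 245 FPKM in TDG KO and at 174 and 176 FPKM in WT. Tubb2a was at 44.9 and 45.8 FPKM in TDG KO and at 34.6 and 36.1 FPKM in WT. Neither pair of groups overlapped, and the log2 differences were 0.44 for Tubb2b and 0.35 for Tubb2a. Reads that match both genes are again uncertain.

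Tubb5 and Tubb4b, the common beta tubulins of dividing cells, were the most abundant of the 10. Tubb5 was at 792 and 859 FPKM in TDG KO and at 752 and 748 FPKM in WT, with no overlap and a log2 difference of 0.14. Tubb4b was at 645 and 717 FPKM in TDG KO and at 639 and 662 FPKM in WT, with overlap.

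Over the 10, both TDG KO libraries lay above both WT libraries in 6 genes and below them in 1, where 35.1% and 43.6% of all tested genes did so and 78.8% did either. A log2 difference of at least 1 in TDG KO was seen in 3 members, the testis pair and Tubb3, and in 3.89% of all tested genes. The median log2 difference was 0.24 over the members and -0.04 over all tested genes. Since the members were chosen with these differences known, nothing is read from the counts.

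**Figure D1:**
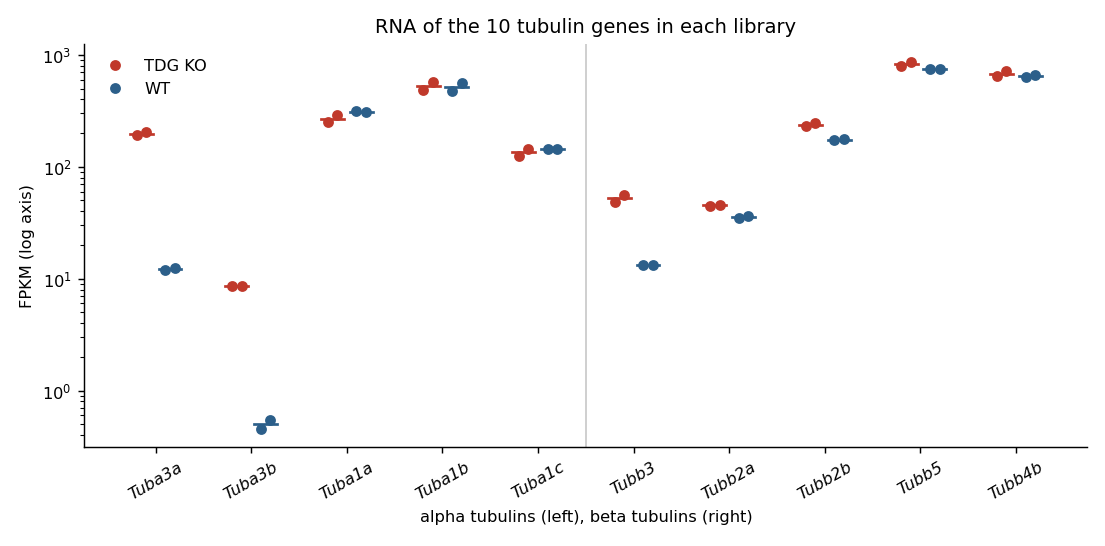
FPKM of the 10 genes (log axis) in each library, with TDG KO points left of WT points and short lines at the means of 2 libraries. The gap is widest for Tuba3a (198 against 12.2 FPKM) and Tuba3b (8.56 against 0.502 FPKM), while Tuba1b and Tubb4b overlap.

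The makeup of alpha tubulin RNA differed. Over all 8 alpha genes listed, Tuba3a gave 15.7% and 14.5% of the summed FPKM in TDG KO and 1.10% and 1.07% in WT. Tuba1b, the leading isotype in every library, gave 39.3% and 41.1% in TDG KO and 43.7% and 48.3% in WT. Tuba1a gave 20.3% and 20.7% in TDG KO and 28.8% and 26.2% in WT. Tuba3b stayed under 1% in each library. The summed level of alpha tubulin RNA was 1233 and 1398 FPKM in TDG KO and 1083 and 1170 FPKM in WT.

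Beta tubulin RNA was led by the same 3 isotypes in every library. Tubb5 gave 42.6% and 42.4% of it in TDG KO and 45.4% and 44.6% in WT, followed by Tubb4b and then Tubb2b. Tubb3 gave 2.61% and 2.76% in TDG KO and 0.791% and 0.794% in WT. Tubb3 thus stood above Tubb2a in both TDG KO libraries, where Tubb2a gave 2.41% and 2.26%, and below it in both WT libraries, where Tubb2a gave 2.08% and 2.15%. The summed beta level was 1859 and 2027 FPKM in TDG KO and 1659 and 1678 FPKM in WT. Over the 10 members, beta RNA exceeded alpha RNA by a factor of 1.66 and 1.58 in TDG KO and of 1.71 and 1.59 in WT, so the groups overlapped in this ratio. These shares are of RNA per length and not of protein.

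**Figure D2:**
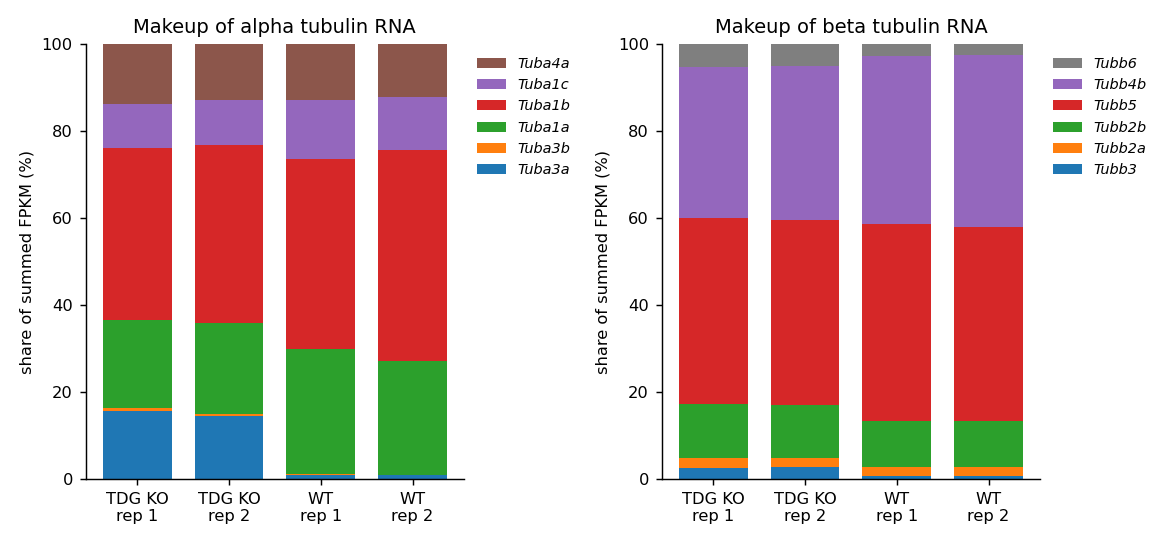
Share of each isotype in the summed FPKM (%) of all alpha (left) and all beta tubulins (right) in each library, TDG KO libraries left of WT libraries; isotypes always under 0.5% have no legend entry. Tuba3a fills 15.7% and 14.5% of the alpha bars in TDG KO and 1.10% and 1.07% in WT.

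The 6 other alpha and beta tubulin genes, which the choice of members left out, add 2 that could be tested. Tubb6, a beta isotype of many non-neural tissues, was at 97.9 and 103 FPKM in TDG KO and at 45.4 and 41.5 FPKM in WT, and rose by 1.19 on the log2 scale (SE 0.0681, limma adjusted p = 4.33e-05). Tuba4a, an alpha isotype whose gene does not encode the usual final tyrosine, was at 170 and 178 FPKM in TDG KO and at 141 and 142 FPKM in WT, and rose by 0.30 (SE 0.0607, limma adjusted p = 0.0064). Tuba8 was at 0.419 and 0.543 FPKM in TDG KO and at 0.0409 and 0.0794 FPKM in WT, below the filter. Tubb4a was at 0.965 and 1.12 FPKM in TDG KO and at 0.998 and 0.767 FPKM in WT, also below it. Tubb1, the isotype of platelets, stayed under 0.1 FPKM in each library, and Tubal3 was listed at 0 in all libraries except TDG KO replicate 1.

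Other genes of the tubulin pathway came from 6 lists that include those tubulins, chosen with earlier results of these data known. Of 95 genes, 94 were in the table and 74 were tested. In TDG KO 19 rose, 20 fell and 35 were not called, so that 52.7% were called beside 54.0% of all genes tested, of which 24.4% were higher and 29.5% lower. Their median log2 change was -0.05, beside -0.04 over all genes. The lower count was 13 without WT replicate 2 and 13 without TDG KO replicate 1.

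The list of gamma, delta and epsilon tubulins and the ring complex with which gamma tubulin seeds microtubules moved both ways, with 3 of 11 tested genes higher and 5 lower. The 3 higher were Tubg1, the delta tubulin gene Tubd1 and Mzt2, and the 5 lower were Tubgcp2, Tubgcp3, Tubgcp5, Tubgcp6 and Mzt1. Tubg1, the main gamma tubulin, rose to 68.8 ± 2.49 FPKM in TDG KO, against 39.4 ± 0.290 FPKM in WT (SD, n = 2 each; log2 change 0.79, limma adjusted p = 0.000133). Tubgcp6, a ring complex subunit, fell by 0.53 on the log2 scale (limma adjusted p = 0.00124).

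In the folding list, which holds the chaperonin that folds tubulin, prefoldin and the tubulin cofactors, 3 of 21 rose, 4 fell and 14 were not called. Pfdn6, a prefoldin subunit, rose by 0.44 (limma adjusted p = 0.00338) and Vbp1, another prefoldin subunit, fell by 0.43 (limma adjusted p = 0.00345). Of 3 genes of tubulin mRNA feedback, 1 was lower. Cnot11, a subunit of the deadenylase complex that this feedback recruits, fell by 0.38 (limma adjusted p = 0.00871), and its call was lost without TDG KO replicate 1 (limma adjusted p = 0.0602).

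Tubulin modifying enzymes rose in 5 and fell in 5 of 15 tested genes. Agtpbp1, a carboxypeptidase that trims glutamate chains from tubulin, fell to 5.93 ± 0.171 FPKM in TDG KO, against 13.5 ± 1.71 FPKM in WT (SD, n = 2 each; log2 change -1.06, limma adjusted p = 0.00025). The 5 higher include Ttll3, a glycylase of axonemal tubulin, which was at 1.42 and 1.33 FPKM in TDG KO and at 0.453 and 0.813 FPKM in WT (limma adjusted p = 0.0142). Ttll3 passed the filter on low values only through TDG KO, fell below it without either TDG KO library, and was not called with no filter (limma adjusted p = 0.0517), so its call is no support for a difference.

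Microtubule-associated proteins rose in 6 and fell in 5 of 22 tested genes. Map1b, a neuronal microtubule-binding protein, rose to 7.75 ± 0.850 FPKM in TDG KO, against 2.70 ± 0.249 FPKM in WT (SD, n = 2 each; log2 change 1.24, limma adjusted p = 0.000178). Stmn3, a neuronal stathmin that binds free dimer, fell by 0.84 (limma adjusted p = 0.000363). Members of the list that mark neurons therefore went both ways.

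**Figure D3:**
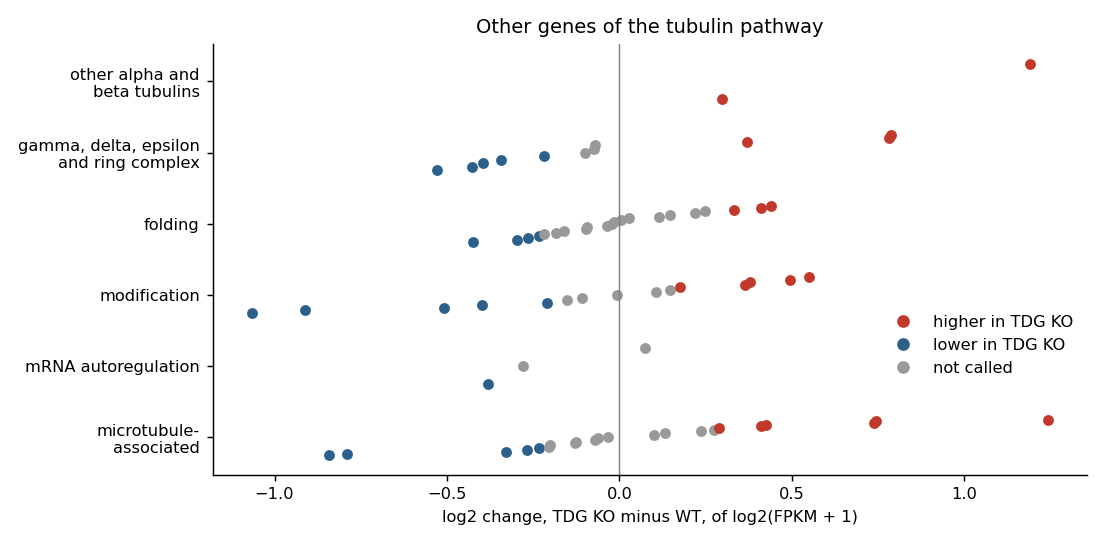
Log2 change (TDG KO minus WT, of log2(FPKM + 1)) of the 74 tested pathway genes, 1 point a gene, in 6 lists; red points were called higher, blue lower and grey not called in limma. Both tested genes of the top row lie to the right of 0, and the other rows spread to both sides.

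Markers of neural cells were set beside Tubb3. Both tested neural progenitor markers of a list of 7, Nes and Pax6, were called higher in TDG KO, and the list summed to 15.2 and 14.6 FPKM in TDG KO and to 5.37 and 5.39 FPKM in WT. The other 5, among them Neurog2, stayed under 1 FPKM in every library. Of these, Sox1, named after its values were seen, went the other way without overlap, at 0.169 and 0.174 FPKM in TDG KO and at 0.561 and 0.576 FPKM in WT. Of 9 neuron markers, 5 were tested and called higher, Stmn2, Nefl, Map2, Elavl3 and Nefm, beside 24.4% of all tested genes. Elavl3 and Nefm passed the filter only through TDG KO, so their calls were fixed in part by it. The 9 had sums of 156 and 164 FPKM in TDG KO and of 109 and 113 FPKM in WT. Stmn2 made up most of those sums, at 137 and 146 FPKM in TDG KO and at 103 and 108 FPKM in WT. Dcx, which marks young neurons, was at no more than 0.01 FPKM in any library. The part of neural cells in the Tubb3 level was not tested.

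Markers of germ cells were set beside the testis pair. Of 6 such markers 4 were higher and 2 lower in TDG KO, beside 24.4% and 29.5% of all tested genes. The 6 summed to 131 and 126 FPKM in TDG KO and to 149 and 172 FPKM in WT. Sycp3 made up the largest part of those sums, at 56.6 and 54.7 FPKM in TDG KO and at 112 and 132 FPKM in WT. Sycp3 and Ddx4 were the lower markers, with log2 changes of -1.12 and -0.93. The higher ones were Stra8, Dazl, Sycp1 and Mael, with log2 changes of 2.84, 1.99, 0.67 and 0.56. The 7 spermatid markers, among them the protamine genes Prm1 and Prm2, stayed under 1 FPKM in each library, and their sums were 0.273 and 0.392 FPKM in TDG KO and 0.086 and 0.0574 FPKM in WT. Tuba3a and Tuba3b were thus measured in cells in which genes of late sperm development were at or near 0. Of 3 tested markers of ciliated cells 1, Tekt1, was higher, beside 24.4% of all tested genes, and Ccdc39 and Rsph1 were not called. Tekt1 was at 8.69 and 9.37 FPKM in TDG KO and at 4.39 and 4.47 FPKM in WT. The list of ciliated cell markers summed to 16.7 and 17.8 FPKM in TDG KO and to 12.8 and 13.5 FPKM in WT. The part of such cells in the Tuba3a level was not tested.

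The genes whose pattern over the 4 libraries was nearest to that of Tuba3a were Pnma5, 1700019B21Rik, Gm9, 1700013H16Rik and Xlr3b. Nearness was the distance between centred log2(FPKM + 1) values, over 8468 genes with a mean of at least 5 FPKM. Pnma5, the nearest, was at 48.5 and 49.3 FPKM in TDG KO and at 1.98 and 2.55 FPKM in WT. Of these 5, the 4 placed by the reference table lie on the X chromosome, unlike Tuba3a. Nearest to Tubb3 were Bcas1, Mt2, Rhox6, Tfpi and Tmem97, and Bcas1 was at 12.5 and 14.7 FPKM in TDG KO and at 2.76 and 2.99 FPKM in WT. All 5 genes nearest to Tuba3a, and Bcas1 and Rhox6 of those nearest to Tubb3, were under 5 FPKM in both WT libraries. They passed this filter only through TDG KO. With 4 libraries in 2 groups, nearness reflects little more than a like difference between the genotypes.

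CTCF peaks within 20 kb of the 10 genes merged into 26 distinct regions. A region is shared where all 4 lists hold a peak, and TDG KO-only where it was in both lists of that genotype and in no WT list. Of the 26, 17 were shared, 1 was TDG KO-only, 0 were held by both WT lists alone and 8 had another makeup. The TDG KO-only count was 3 without TDG KO replicate 1, 4 without TDG KO replicate 2 and 3 without WT replicate 1, and 0 within 10 kb. With a list left out, the class rests on the remaining lists only. A region of a single TDG KO list, or one absent only from the remaining WT list, can then enter it. Over all 54729 merged regions 59.8% were shared, 10.8% TDG KO-only and 0.17% WT-only. Of the 10 genes, 1 had a TDG KO-only region within 20 kb, beside 22.8% of 21887 protein-coding genes. The median was 2.5 regions a member and 2 regions a protein-coding gene. With 2 lists a genotype, 0.33 is the smallest 2-sided p that an exact permutation test allows, so these counts carry none.

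Tuba3a held the TDG KO-only region. It lies at chr6:125266661-125267033, 11237 bp beyond the gene's end in RefSeq, from which distances here are counted. The authors' deposited comparison gives Tuba3a a longer locus of 21812 bases (chr6:125265475-125287286), shared by 2 listed genes. That locus holds this region and the shared regions placed below beyond the RefSeq end. The peaks of the TDG KO-only region were weak within their lists, at score percentiles of 25.2 and 26.3 in TDG KO replicates 1 and 2. The score is the authors' own value for a peak, and the percentile is its place among the scores of its list. A further 2 regions at Tuba3a were in TDG KO replicate 1 alone, at percentiles of 0.312 inside the gene (chr6:125284371-125284532) and 20.1 beyond its end (chr6:125263048-125263311).

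A further 3 regions at Tuba3a were shared. The first lies inside the gene (chr6:125284786-125285285), with its centre 1046 bp after the start, at percentiles of 60.7 and 44.8 in TDG KO and of 31.8 and 11.8 in WT. The second (chr6:125274516-125275583) lies 2687 bp beyond the gene's end, at percentiles of 98.1 and 96.5 in TDG KO and of 70.9 and 66.1 in WT. The third (chr6:125271538-125272030) lies 6240 bp beyond it, at percentiles of 93.6 and 81.7 in TDG KO and of 67.4 and 68.3 in WT.

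The 3 shared regions thus stood at a higher percentile in both TDG KO lists than in both WT lists. The TDG KO lists are longer, at 48514 and 48833 peaks against 38303 and 37099 in WT, and percentiles from lists of different length show no change. Among all shared regions 41.6% stood the same way. With each list kept to its strongest 37099 peaks, the second region stayed higher in TDG KO, at 97.5 and 95.3 against 70.0 and 66.1 in WT, as did the third, at 91.7 and 75.9 against 66.3 and 68.3. The region inside the gene then overlapped, at 48.7 and 27.3 in TDG KO and 29.6 and 11.8 in WT. In those lists 19.5% of all shared regions, and 3 of 15 near the members, were higher in both TDG KO lists.

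Tuba3b had no CTCF peak within 20 kb in any list. Its nearest region, shared by all 4 lists, began 34246 bp beyond the gene (chr6:145655723-145656029). That region stood at percentiles of 35.4 and 45.3 in TDG KO and of 10.6 and 7.72 in WT, in lists of different length. The part of CTCF in the RNA levels of the testis pair was not tested.

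All 3 regions at Tubb3 were shared. They lie 4379 bp before the gene (chr8:123406438-123407174), inside it (chr8:123415882-123416267) and 544 bp after it (chr8:123422559-123422788). The region before the gene was strong, at percentiles of 87.3 and 95.0 in TDG KO and of 94.3 and 86.1 in WT. The region inside stood at 79.2 and 72.1 in TDG KO and at 47.3 and 66.0 in WT, and with the strongest 37099 peaks of each list the groups overlapped there. The third stood at 35.2 and 39.7 in TDG KO and at 41.3 and 25.03 in WT, with overlap, and with the strongest 37099 peaks at 15.2 and 20.7 in TDG KO and at 39.4 and 25.03 in WT.

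**Figure D4:**
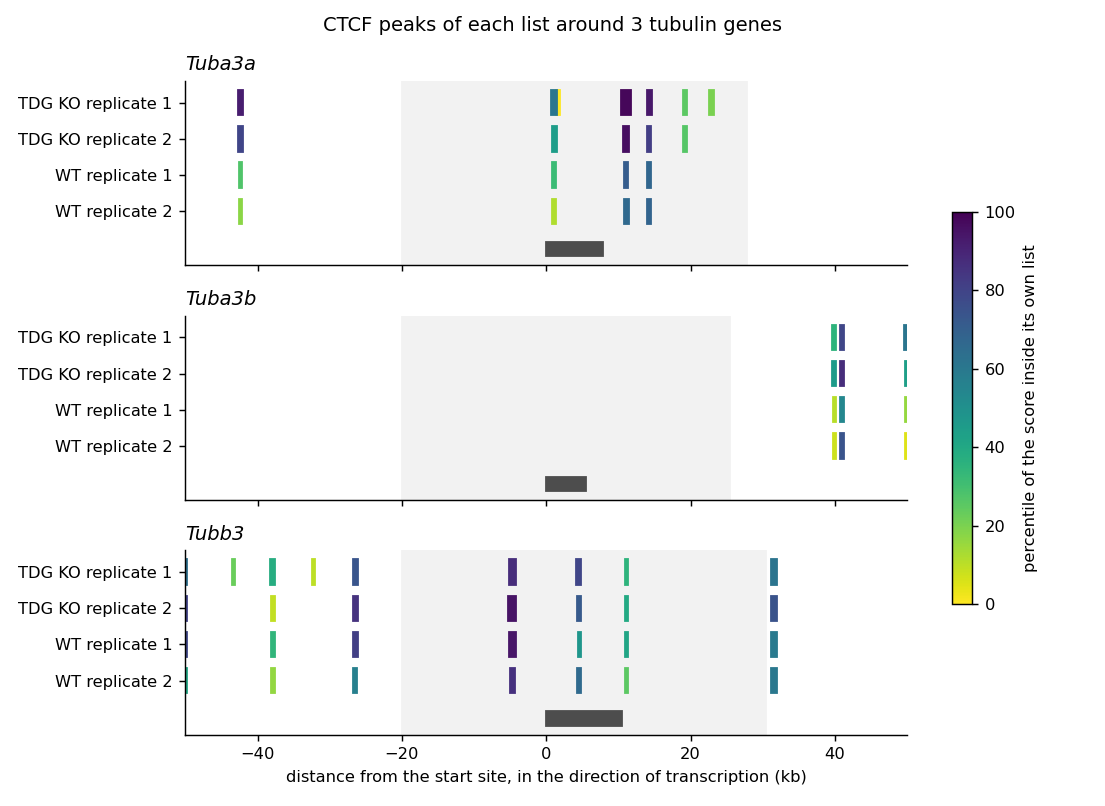
CTCF peaks of the 4 lists (rows, TDG KO above WT) against distance from the start site in the direction of transcription (kb), for Tuba3a, Tuba3b and Tubb3; colour is the percentile of the peak's score inside its own list, dark bars at the bottom are the genes and grey is the 20 kb window. Within 20 kb Tuba3a has 6 and 4 peaks in TDG KO and 3 and 3 in WT, Tubb3 has 3 in each list and Tuba3b has 0.

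Among the other members, Tubb2a was the 1 gene with a region over its start window. That shared region (chr13:34077966-34078284) covered 293 of the 300 bases printed above, at percentiles of 32.1 and 23.6 in TDG KO and of 50.0 and 23.0 in WT. Among the strongest 37099 peaks of each list, TDG KO replicate 2 no longer held it. Tuba1c had the most regions of the 10 genes, 7, of which 5 were shared, and Tuba1a, Tuba1b, Tubb2b, Tubb5 and Tubb4b had 1 to 3 each. Around these genes 6 regions were not held by all 4 lists. At Tuba1c these were 1 in both TDG KO lists and WT replicate 1 (chr15:99023378-99023677) and 1 in TDG KO replicate 2 alone (chr15:99056773-99057040). A peak of TDG KO replicate 2 alone lay near Tuba1a and Tuba1b (chr15:98945175-98945361). At Tubb2b the region (chr13:34131767-34131974) was in replicate 1 of each genotype, and at Tubb5 (chr17:35824544-35824801) it was absent from WT replicate 2. At Tubb4b (chr2:25203956-25204151) it was in TDG KO replicate 2 and WT replicate 1. The farthest region counted for a gene lay 18737 bp from Tuba1b, but this region is inside Tuba1a. By its nearest member the farthest region lay 18668 bp from Tuba1c. The nearest region left out lay 20507 bp from Tubb2b.

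The neighbourhood of each gene was compared with the gene itself. Of 14 tested genes within 200 kb of Tuba3a, 5 rose in TDG KO and 1 fell, with a median log2 change of -0.05. Tapbpl, an antigen-processing gene 46410 bp away, rose by 0.68 (limma adjusted p = 0.00163), Mrpl51, a mitochondrial ribosomal protein gene, by 0.63 (limma adjusted p = 0.000746) and Lpar5, a lysophosphatidic acid receptor gene, by 0.63 (limma adjusted p = 0.00318). Nop2 rose by 0.56 and the glycolysis gene Gapdh by 0.36 (limma adjusted p = 0.00066 and 0.0173), and Gm28809 fell by 0.33 (limma adjusted p = 0.0415). Tapbpl averaged under 1 FPKM in WT and Gm28809 in TDG KO, so each passed the filter only through the other genotype. The nearest tested gene, Ltbr, 20490 bp away, was not called (log2 change -0.29, limma adjusted p = 0.062). Chd4, Gm23751, Iffo1, Ncapd2, Vamp1, Tnfrsf1a and Cd9 were not called either.

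Within 5 Mb of Tuba3a, 51 of 78 tested genes were higher (65.4%) and 4 lower, with a median log2 change of 0.36. On chromosome 6 as a whole 31.7% were higher, and 24.4% over all genes. CTCF peaks there were also a larger share of the TDG KO lists, at 0.833% and 0.711%, against 0.567% and 0.669% of the WT lists. The Tuba3a difference of 3.91 exceeded that median by 3.55, and the part of the surrounding region in it was not tested. Around Tuba3b, on the same chromosome, 6 of 31 tested genes within 5 Mb were higher and 7 lower (median -0.02), with CTCF shares of 0.449% and 0.453% in TDG KO and 0.465% and 0.469% in WT. Its 1 tested neighbour within 200 kb, Rassf8, was not called (limma adjusted p = 0.0713).

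Around Tubb3, 1 of 10 tested genes within 200 kb rose and 3 fell. Spire2, an actin nucleator gene 42035 bp away, rose by 1.08 (limma adjusted p = 0.000174). Fanca, of the Fanconi anaemia repair pathway, fell by 0.44, Zfp276 by 0.33 and the kinase gene Cdk10 by 0.19 (limma adjusted p = 0.00458, 0.0411 and 0.0443). The closest, Tcf25, 7379 bp away, was at 55.5 FPKM in TDG KO and at 52.5 FPKM in WT and was not called (limma adjusted p = 0.306), nor were Def8, Afg3l1, Gas8, Chmp1a and Vps9d1. Within 5 Mb 22 of 80 were higher and 15 lower, with a median log2 change of 0.01.

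**Figure D5:**
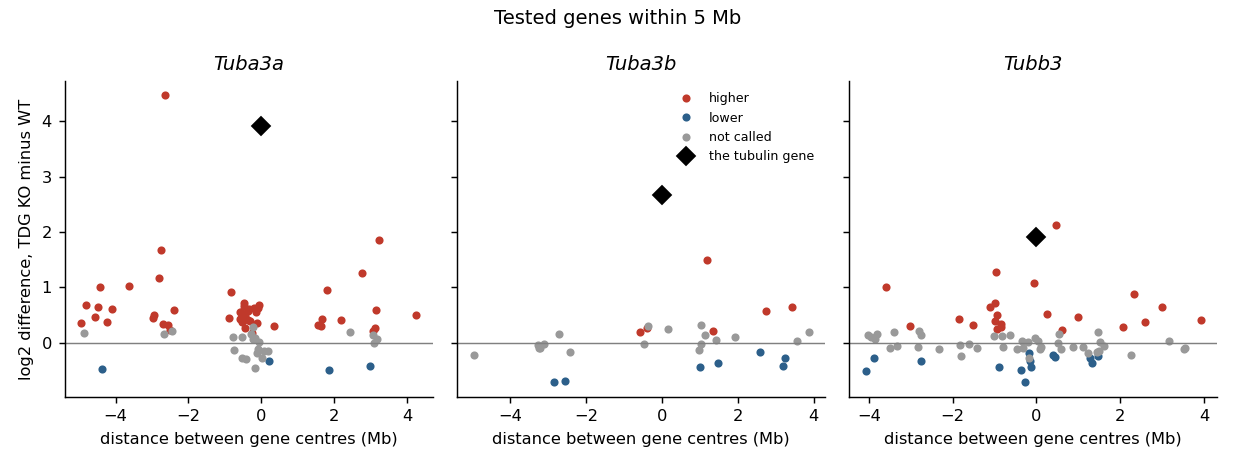
Log2 difference (TDG KO minus WT) of every tested gene within 5 Mb of Tuba3a, Tuba3b and Tubb3 against the distance between gene centres (Mb); diamonds are the tubulin genes, red points were called higher, blue lower and grey not called in limma. Most genes around Tuba3a lie above 0 (median 0.36), those around Tuba3b and Tubb3 lie about 0 (medians -0.02 and 0.01), and each diamond stands above all other points of its panel except Dppa3 in that of Tuba3a and Acta1 in that of Tubb3.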

How the data were processed

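The authors deposited FPKM of 46939 genes for 2 TDG KO and 2 WT libraries, per the file headers, with a table of their comparison giving mean FPKM, log2 folds (WT over TDG KO), q-values with their p-values, and a test score. They also deposited a CTCF peak list with a score per peak for each of 4 libraries. The sources used here do not say what that score measures. MACS2 2.2.1, Bowtie2 2.2.9, deepTools, Cuffdiff, Cufflinks 2.2.1 and TopHat2 2.1.1, and the build mm10, are listed without roles per the submitters' processing notes.

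Here, limma 3.58.1 in R 4.3.3 tested log2(FPKM + 1), with trend, over 12035 genes with a mean of at least 1 FPKM, Benjamini-Hochberg adjusted, 2-sided; such folds understate low genes. The procedures were tested on simulated data. Peaks were merged at an overlap of 1 bp or more, and gene ends came from RefSeq, since the deposited Tubb3 locus spans many genes. The RefSeq tables gave positions for all 10 members and start windows for 9. The members and lists were chosen with earlier results of these data known. Named were all members, other tubulins, each list's furthest called genes, the 5 nearest patterns, neighbours within 200 kb, and CTCF regions at Tuba3a, Tuba3b and Tubb3 or not shared. RNA polymerase II, IgG and input libraries were not analysed here.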

Additional observations from a re-analysis of the deposited data

How the results depend on the processing

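Of 281 values recomputed for 31 results, 267 kept their direction and side of the threshold or stayed within the spread, 12 moved, 2 calls were lost (Ttll3 and Cnot11, given above) and 0 reversed. A pseudocount of 0.1 raised the log2 difference of Tuba3a to 4.01 and of Tuba3b to 3.85, since it weighs low WT values more. Pathway genes called lower numbered 13 to 16 with a library left out, against 20 with all. Within 50 kb the members had 62 CTCF regions, 42 shared and 3 TDG KO-only, and within 10 kb 0 TDG KO-only. The strongest 37099 peaks of each list gave 1 WT-only region, at Tuba1a. With a list left out, the class rested on the remaining lists only, and TDG KO-only regions numbered 1 to 4. The cause of these shifts was not tested, beyond the wider or narrower window and the fewer lists that define the class. A further 3 alternatives were chosen after seeing the data and moved no count by over 1.5 times: the deposited loci without Tubb3, the pathway lists without the chromosomes of Tuba3a, Tuba3b and Tubb3, and those lists without marker genes. With a replicate block 6696 genes were called, against 6496 without it, and 21 pathway genes were higher and 19 lower, and no call of a named pathway gene changed; deviations of same-numbered libraries correlated at -0.016 across genes, and numbers alone do not pair the libraries. Absolute depth is unknown, and 2 libraries a group limit every statement.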
